A study of Mus musculus with 44 samples.

Results

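The contacts of the Slc44a1 promoter were compared between mouse liver and mouse kidney. Every restriction fragment of the deposited contact table for the Slc44a1 bait was taken, without selection on its values. The table held 5928 fragments, of 30070 in the tables of all 5 baits of the series. Of these fragments 2872 lay upstream of the bait and 3056 downstream, up to 2000 kb away on either side.

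Chromatin contacts were measured by circular chromosome conformation capture (4C-seq), in which DNA ligated to a chosen bait fragment after crosslinking is sequenced. The Slc44a1 bait had 2 liver libraries and 2 kidney libraries, named EF and GH in each tissue, from wild-type (WT) C57BL/6 mice aged 8 to 12 weeks and fed ad libitum. Both tissues were taken at zeitgeber time (ZT) 20, in the dark phase, from individual animals, and were fixed in 1.5% formaldehyde for 10 min. The series also holds 24 kidney RNA libraries and 4C-seq of 4 other baits. What the letters EF and GH stand for was not given in the sources used here. The labels list no treatment for the mice of the Slc44a1 4C-seq libraries.

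Slc44a1 encodes choline transporter-like protein 1, a plasma membrane and mitochondrial carrier of choline. Choline is needed for the synthesis of phosphatidylcholine, the main phospholipid of membranes and of the lipoproteins that liver secretes, and kidney uses it for the osmolyte betaine. Promoters touch distant DNA by looping of the chromatin fibre. Contact frequency in 4C-seq falls steeply with distance along the chromosome, and an enhancer in contact with its promoter can stand out as a local peak above this fall.

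The bait lay at position 53440213 of chromosome 4 (GRCm38), in a fragment of 1787 bp from 53439321 to 53441107. It was 200 bp before the annotated start of Slc44a1 (ENSMUSG00000028412, 53440413 to 53622478, plus strand), so lower coordinates are upstream and the gene body is downstream. A few stretches of reference sequence are shown as description, written 5′ to 3′ on the plus strand of GRCm38, and no call used them. They are the bait promoter and the centres of the peak fragments of both liver-high regions with the largest differences.
Slc44a1 promoter, the 250 bases before the start, chr4:53440163-53440412 (RefSeq, GRCm38.p6): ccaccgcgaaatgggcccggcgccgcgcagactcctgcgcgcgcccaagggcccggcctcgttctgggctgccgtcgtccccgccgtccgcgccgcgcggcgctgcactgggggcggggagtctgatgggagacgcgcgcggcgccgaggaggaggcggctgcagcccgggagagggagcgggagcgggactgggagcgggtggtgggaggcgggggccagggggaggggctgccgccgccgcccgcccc
Liver-high region 23.4 kb upstream, chr4:53416691-53416990: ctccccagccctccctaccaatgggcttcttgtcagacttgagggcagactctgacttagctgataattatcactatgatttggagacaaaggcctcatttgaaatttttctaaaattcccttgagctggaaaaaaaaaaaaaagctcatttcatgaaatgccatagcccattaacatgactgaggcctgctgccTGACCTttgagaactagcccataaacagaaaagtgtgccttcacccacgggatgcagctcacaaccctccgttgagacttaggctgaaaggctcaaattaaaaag
Liver-high region 203.1 kb upstream, chr4:53236986-53237285: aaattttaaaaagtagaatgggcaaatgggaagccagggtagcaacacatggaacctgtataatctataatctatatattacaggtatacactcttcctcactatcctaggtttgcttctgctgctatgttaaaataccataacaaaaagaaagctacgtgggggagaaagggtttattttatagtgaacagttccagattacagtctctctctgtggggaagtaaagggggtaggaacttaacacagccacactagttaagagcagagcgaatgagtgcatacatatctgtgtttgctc
The capitals mark TGACCT, the reverse complement of AGGTCA, the core of many nuclear receptor sites. Both strands were searched for this AGGTCA core, for the E-box CACGTG, for the D-box TTANGTAA, for the FOXA motif TGTTTAC, for the HNF4 motif CAAAGTCCA and for the palindromic HNF1 motif. The first liver-high stretch held 1 AGGTCA match, at base 196 counted from its 5′ end, which overlapped no other match. AGGTCA is common: it was in 16.4% of 39998 windows of 300 bases around the bait and in 16.3% of 32851 RefSeq promoters. The other stretches held none of the 6 motifs, which says only that these letters are not in these windows. The Slc44a1 promoter was very rich in G and C, at 81.2% over the 250 bases shown. Over the 300 bases of its RefSeq entry it was at 79.7%, above 98.8% of the promoters, whose median was 52.7%.

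The deposited value is 1 smoothed contact signal per tissue and fragment, on a scale that is not stated, with a variance beside it. Each value combines the liver or the kidney libraries, so the spread between animals could not be seen and no p-value is given. A difference is liver minus kidney in units of that signal, and its standard error (SE) is the square root of the sum of both variances. A fragment was called where the difference passed 3 SE, and called fragments of the same direction were joined into regions across gaps of up to 10 kb. The variances of both tissues were within 10% of each other in 78.5% of fragments, and in 94.6% of those within 500 kb. Near the bait they could be identical: at the start of the noncoding gene Gm12496 both SEs were 0.0293785497. How the variance was estimated is not stated, so both SEs may not be separate errors of each tissue. Ratios of a difference to its SE are given with that limit. Differences of neighbouring fragments correlated at 0.986, and those 10 kb apart at 0.438, so fragments of a region are not independent and regions are counted beside them. Read counts and depth are unknown here, and the number of libraries limits the precision. Both tissues are mixtures of cell types, so a contact made in more cells and one made more often in the same cells cannot be told apart. A contact table holds no marker genes, so the tissue labels could not be checked against them.

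In both tissues the signal was highest beside the bait and fell with distance. The nearest fragments lay 4.587 kb upstream and 5.127 kb downstream. The highest signal was 1.63 in liver and 1.66 in kidney, and the medians over all fragments were 0.0453 and 0.0581. Liver held 31.8% of its summed signal within 100 kb of the bait, and kidney 26.7%. Within 500 kb the shares were 77.0% in liver and 71.7% in kidney. The signal was thus more concentrated near the promoter in liver, with the remainder further out in kidney. The Pearson correlation of both tissues over fragments was 0.971 over the whole window and 0.458 beyond 500 kb, as a description of fragments that share the fall with distance.

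**Figure D1:**
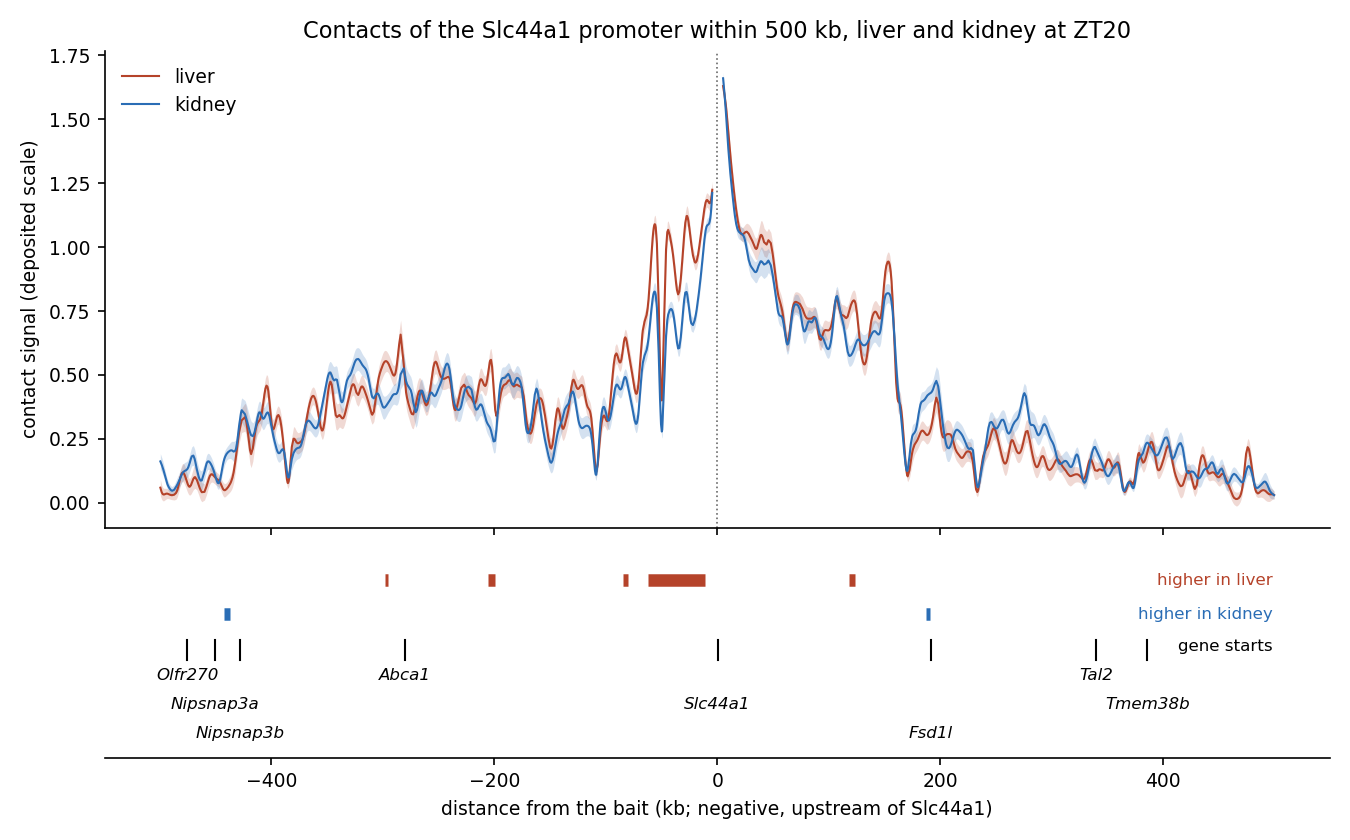
Contact signal (y axis, deposited scale) of liver and kidney against distance from the bait (x axis, kb) within 500 kb, with bands of 1 SE from the deposited variance; bars below mark called regions and ticks the protein-coding gene starts that the text describes. Both profiles follow the same outline, and liver is the higher over 50.9 kb just upstream of the promoter while kidney is the higher just before Fsd1l.

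Liver-high and kidney-high fragments were of similar number, and the liver-high ones lay nearer to the bait. Liver was higher in 102 fragments (1.72 percent of the 5928), which formed 5 regions between 11.6 and 297.4 kb from the bait. Of these fragments 94 were upstream and 8 downstream. Kidney was higher in 113 fragments (1.91 percent), which formed 15 regions between 187.6 and 1627 kb from the bait, 69 of them upstream and 44 downstream. None of the 102 liver-high fragments lay beyond 500 kb, where 88 of the 113 kidney-high fragments were found. The sizes of the differences ran from 0.116 to 0.345 (median 0.207) where liver was higher, and had a median of 0.104 where kidney was higher. With the median difference of all fragments (-0.00948) subtracted, 127 fragments were higher in liver and 59 in kidney, so the balance of the directions depends on this centring. The separation in place depends on it too: 11 of those 127 liver-high fragments lay beyond 500 kb, out to 1651 kb. With the median difference of each distance class subtracted, 9 of 68 liver-high fragments lay beyond 500 kb, and kidney-high fragments began 20.45 kb from the bait.

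**Figure D2:**
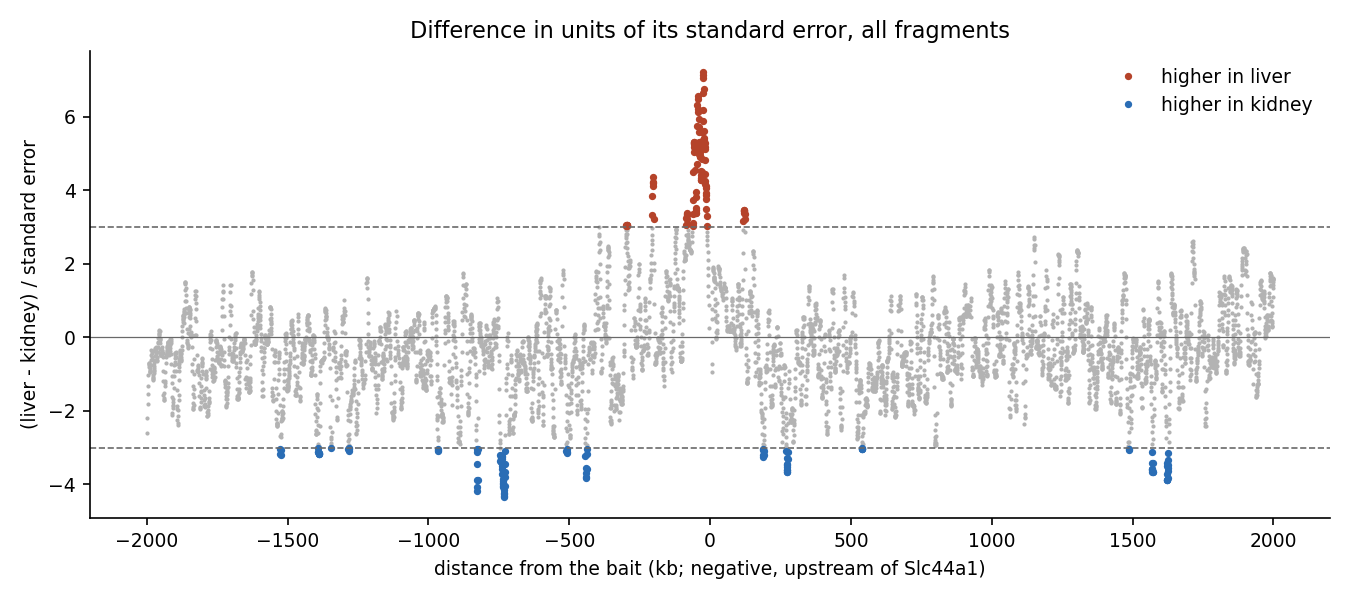
Difference of liver minus kidney divided by its SE (y axis) against distance from the bait (x axis, kb) for all 5928 fragments, with dashed lines at 3 SE and called fragments in colour. Liver-high fragments stand in a single block beside the bait with 4 smaller groups, up to 7.22 SE, and kidney-high fragments are scattered to the far ends, down to -4.33 SE.

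The main liver-high region filled most of the first 62 kb upstream of the promoter. It ran from 53378222 to 53429132, a length of 50.9 kb between 11.1 and 62.0 kb from the bait, and all 74 fragments inside it were called. Its peak fragment, 53416619 to 53417061 at 23.4 kb, had a signal of 1.01 (SE 0.0303) in liver and 0.702 (SE 0.0303) in kidney. The difference of 0.309 (SE 0.0428) was 7.22 times its SE, the largest ratio of any fragment in the window. With the median of its distance class subtracted, this difference was 0.188, which is 4.38 times its SE. Over the region the mean signal was 0.940 in liver and 0.717 in kidney, with a mean difference of 0.223. The AGGTCA match printed above lies in this peak fragment. No protein-coding gene overlaps the region, whose nearest protein-coding gene is Slc44a1 itself, 11.3 kb away, and Abca1 lies 218.3 kb away on the other side. An exon of the long intergenic noncoding RNA Gm12496 lies inside it. The start of Gm12496, 36.2 kb upstream of the bait, had a signal of 0.833 in liver and 0.628 in kidney, a difference of 0.205 (SE 0.0416).

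Some landmarks of this stretch were shared by both tissues, at different heights. Local maxima and minima were defined, after the profiles had been seen, as the highest or lowest fragment within 5 kb on either side. In liver there were maxima at 27.1 kb (signal 1.12), 44.1 kb (1.07) and 56.3 kb (1.09) upstream. In kidney they were at 27.6 kb (0.825), 41.5 kb (0.758) and 56.3 kb (0.826). The first and last of these maxima lay within 2 kb of each other in both tissues, and the middle ones were 2.68 kb apart. Between the outer maxima both tissues fell to a minimum in the same fragment at 49.8 kb, with 0.400 (SE 0.0254) in liver and 0.279 (SE 0.0254) in kidney. Liver was the higher at these maxima and in this minimum alike, which the calls had already set, since every fragment of this region was called. Within 500 kb, 26 of 58 liver maxima had a kidney maximum within 2 kb, which is 26 of the 54 kidney maxima. Of the minima, 31 of 65 in liver and 31 of 56 in kidney had such a partner. How many would find a partner by position alone was not computed, so these counts are description only.

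Within 100 kb of the bait, liver-high calls were found on the upstream side alone, while smaller differences of the same direction were present on both. Upstream at 10 to 50 kb, the median signal of 58 fragments was 0.990 in liver and 0.739 in kidney, with a median difference of 0.221, and 56 were called. At 50 to 100 kb upstream, the medians of 74 fragments were 0.566 and 0.447, and 25 were called. Liver was above kidney in 129 of the 132 upstream fragments between 10 and 100 kb. Downstream at 10 to 50 kb, inside the Slc44a1 gene, the medians of 52 fragments were 1.05 in liver and 1.03 in kidney. The median difference there was 0.0699 (median SE 0.0425), with liver above kidney in 50 of 52, and 0 of the 126 downstream fragments between 10 and 100 kb were called. Liver was above kidney in 116 of those 126, and the nearest liver-high call on this side lay further out, at the region 120.7 kb downstream. With the median difference of each distance class subtracted, 24 of the 132 upstream fragments were past 3 SE with liver higher, and 4 downstream fragments passed 3 SE with kidney higher. Within 10 kb of the bait, where the signal was highest, none of the 10 upstream and 7 downstream fragments was called.

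**Figure D3:**
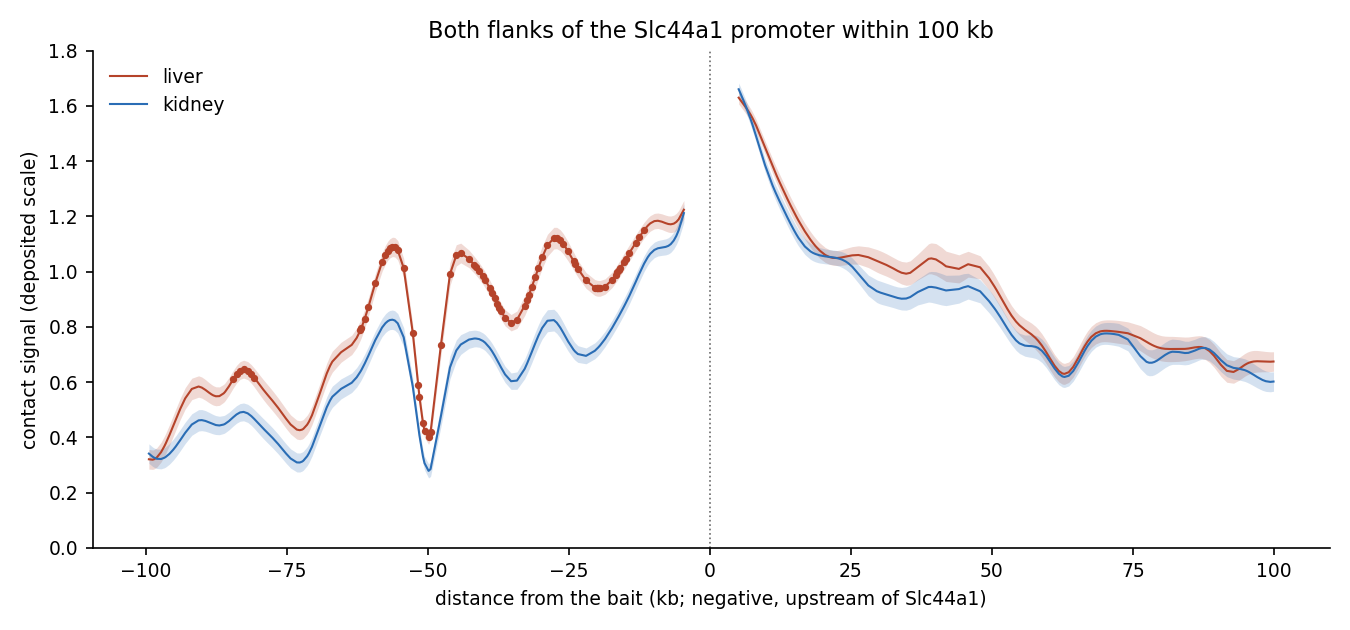
Contact signal (y axis, deposited scale) against distance from the bait (x axis, kb) within 100 kb on both sides, with bands of 1 SE and dots on called fragments. Upstream, liver lies above kidney in 129 of 132 fragments beyond 10 kb; downstream the bands overlap over most of the flank and 0 of 126 fragments are called.

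On the side of lower coordinates, a liver excess close to the bait was also present for other baits. The percentages called over the whole windows, higher in liver and in kidney, were 2.88 and 0.412 for Mreg, 3.53 and 2.09 for Pi3kap1, 0.593 and 0.214 for Slc45a3long, and 1.23 and 1.04 for Slc45a3short. Between 10 and 100 kb on the side of lower coordinates, liver was higher in 81 of 132 fragments for Slc44a1. It was higher in 102 of 134 for Mreg, 84 of 126 for Pi3kap1, 15 of 141 for Slc45a3long and 38 of 133 for Slc45a3short. On the side of higher coordinates the liver-high fragments were 0 of 126 for Slc44a1 and 0 of 146 for Mreg, and 53 of 127 for Pi3kap1, 0 of 142 for Slc45a3long and 19 of 144 for Slc45a3short. Kidney was higher on that side in 1 fragment for Slc45a3long and 4 for Slc45a3short, and in 0 for the other baits. The median difference there was -0.0309 for Slc45a3long and -0.00461 for Slc45a3short, and positive for the other baits. The Pi3kap1 bait was sampled at ZT8 and the others at ZT20. Differences between baits were not tested. With the median difference of each distance class subtracted, 68 fragments of the Slc44a1 bait were higher in liver, 45 of them among the 102.

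Further upstream, liver was higher at 3 smaller places. The region from 53234156 to 53240392 peaked 203.1 kb upstream, with 0.559 (SE 0.0447) in liver and 0.283 (SE 0.0447) in kidney. Its difference of 0.277 (SE 0.0632) was 4.38 times its SE, and liver had a local maximum there where kidney had none within 2 kb. It overlaps no annotated gene, and lies 74.3 kb before the start of Abca1, the transporter that passes cholesterol to high-density lipoprotein. The region from 53142527 to 53144433 lies within Abca1 and peaked in an intron 296.6 kb from the bait, with 0.553 (SE 0.0393) in liver and 0.383 (SE 0.0393) in kidney. That from 53355584 to 53359622 lies in intergenic sequence and peaked 82.6 kb from the bait. Its signal was 0.647 (SE 0.0323) in liver and 0.492 (SE 0.0323) in kidney, and both tissues had their local maximum in that fragment. These last regions were only just called, at 3.06 and 3.39 times the SE. With the median of the distance class subtracted, the difference at 82.6 kb fell from 0.155 to 0.0836, or 1.83 times its SE, and was no longer called.

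Inside Slc44a1, both tissues kept a high signal over most of the gene and then fell together. Over the 257 fragments in the gene the mean signal was 0.758 in liver and 0.724 in kidney, and differences ran from -0.110 to 0.201. The only called stretch, from 53558458 to 53563570, held 8 fragments and also overlaps the antisense gene 1700060J05Rik. At its peak, a fragment overlapping an exon of Slc44a1 120.7 kb from the bait, the signal was 0.783 (SE 0.0410) in liver and 0.583 (SE 0.0410) in kidney. The difference of 0.201 (SE 0.0580) was 3.46 times its SE. A shared maximum followed at 153.3 kb in liver (0.944) and 152.7 kb in kidney (0.820). The signal then dropped to 0.103 (SE 0.0212) at 170.7 kb in liver and 0.124 at 170.3 kb in kidney, still within the gene, where the tissues did not differ by 3 SE.

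Past the end of Slc44a1 the direction turned, and kidney was the higher. The region from 53627735 to 53631133 lies between the end of Slc44a1, 5.26 kb away, and the start of Fsd1l, 0.338 kb away. Its peak, 189.6 kb downstream, had 0.269 (SE 0.0338) in liver and 0.425 (SE 0.0338) in kidney, a difference of -0.156 (SE 0.0477). On the upstream side the only kidney-high region within 500 kb was at Nipsnap3a, a gene of the NIPSNAP family, from 52997398 to 53003106. Its peak in an exon 440.4 kb from the bait had 0.0537 (SE 0.0252) in liver and 0.191 (SE 0.0254) in kidney.

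Of 16 protein-coding gene starts examined in the window, 8 lay within 500 kb of the bait. The fragment nearest to a start was called at 0 of 16 with liver higher and at 0 of 16 with kidney higher, beside 1.72 and 1.91 percent of all fragments. A gene whose start lies in a called region is not reported here and is not among the 16. These counts were set partly by that omission, so no conclusion is drawn from them. The Fsd1l start came closest, with 0.285 (SE 0.0347) in liver and 0.429 (SE 0.0347) in kidney. Its difference of -0.144 (SE 0.0491) was 2.93 times its SE in size and was not called. Downstream, Tal2, which encodes a helix-loop-helix transcription factor, had 0.127 (SE 0.0366) in liver and 0.218 (SE 0.0346) in kidney. Tmem38b, a potassium channel of the endoplasmic reticulum, had 0.195 (SE 0.0337) and 0.235 (SE 0.0345). Neither difference reached 2 SE. Upstream, the Abca1 start had the highest signal of all the other protein-coding starts in both tissues, 0.432 (SE 0.0572) in liver and 0.476 (SE 0.0573) in kidney. Its difference of -0.0437 (SE 0.0809) was below its SE, so the liver-high places around Abca1 did not include its start. The starts of Nipsnap3b (0.275 in liver, 0.300 in kidney), Nipsnap3a (0.101 and 0.115) and the olfactory receptor gene Olfr270 (0.0780 and 0.132) differed by at most 1.14 SE. The Slc44a1 start itself cannot be read, since its nearest fragment is 4787 bp away. That fragment had 1.22 (SE 0.0336) in liver and 1.21 (SE 0.0336) in kidney.

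**Figure D4:**
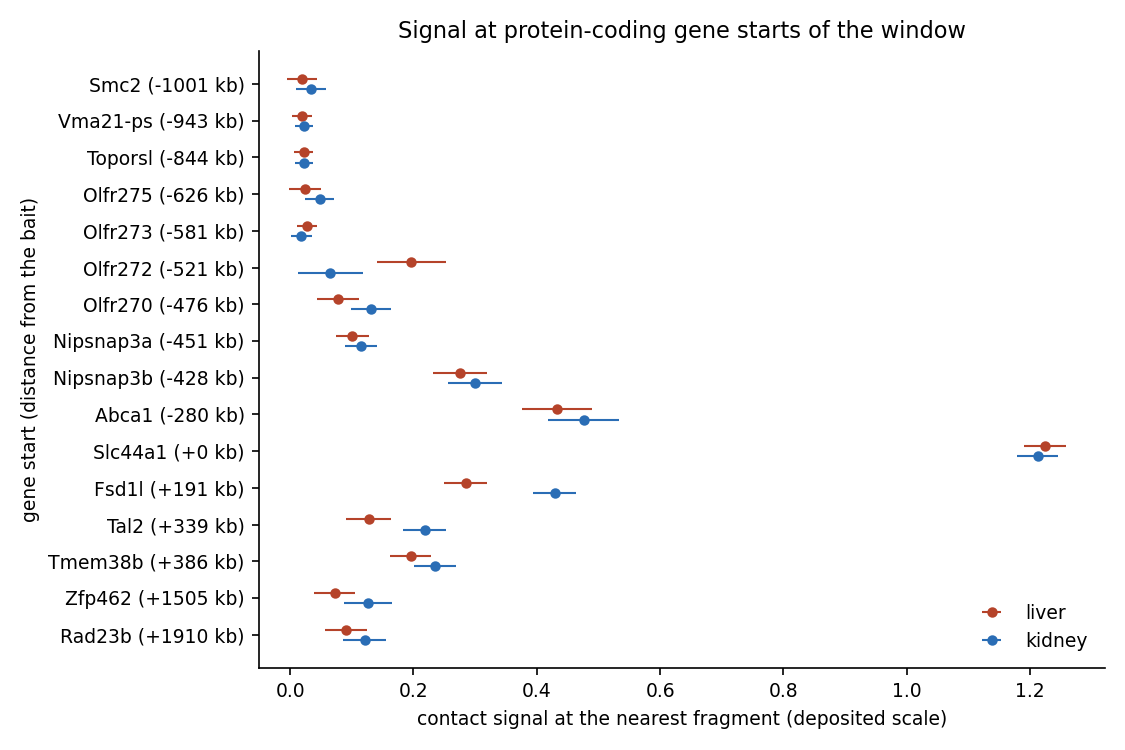
Contact signal (x axis, deposited scale) at the fragment nearest to each of the 16 protein-coding gene starts examined (y axis, with distance from the bait), in liver and kidney, with bars of 1 SE. The start of Fsd1l shows the widest gap relative to its bars, with kidney higher, and the Slc44a1 and Abca1 starts overlap between tissues.

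By level, the distant starts within 500 kb ran in liver from Abca1 through Fsd1l, Nipsnap3b, Tmem38b, Tal2 and Nipsnap3a to Olfr270. In kidney the order was Abca1, Fsd1l, Nipsnap3b, Tmem38b, Tal2, Olfr270 and Nipsnap3a. Neighbours in these orders lay within the sum of their SEs, with these exceptions. In liver they were Abca1 and Fsd1l, and Nipsnap3b and Tmem38b, and in kidney Fsd1l and Nipsnap3b, and Tal2 and Olfr270. Beyond 500 kb the highest signals at starts were at Olfr272 in liver (0.197, SE 0.0562, against 0.0647 in kidney) and at Zfp462, a zinc finger gene (0.0725 in liver and 0.127, SE 0.0386, in kidney). Rad23b, whose product acts in nucleotide excision repair, had 0.0900 in liver and 0.121 in kidney, although it lies 1910 kb away. Olfr275, the remaining start named by its ratio, had 0.0242 and 0.0481. None of these differed by 2 SE.

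Beyond 500 kb, 12 regions were higher in kidney, with 88 fragments. The longest, from 52694472 to 52713060, spans 18.6 kb of intergenic sequence between Toporsl, 82.0 kb away, and Olfr275, 101.5 kb away. Its 29 fragments, all of them called, had signals of 0.00263 to 0.00682 in liver and 0.0836 to 0.143 in kidney. The calling rule itself sets these levels apart, and the fragments are smoothed neighbours. At its peak, 731 kb upstream, the signal was 0.00590 (SE 0.0209) in liver and 0.138 (SE 0.0221) in kidney. The difference of -0.132 (SE 0.0304) was 4.33 times its SE, the largest ratio with kidney higher. Across the 15 kidney-high regions, 11 had a liver signal at the peak below 2 times its own SE. The share of all fragments with such a low liver signal was not counted. Beyond 500 kb the median liver signal was itself low, 0.0309, beside a median SE of the difference of 0.0274. The calling rule also favours low liver values, so no conclusion is drawn from this count.

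Of the other distant kidney-high regions, several lay in genes. Those peaking 1571 and 1623 kb downstream lie in Zfp462, with 0.148 (SE 0.0208) and 0.141 (SE 0.0202) in kidney and 0.0377 (SE 0.0217) and 0.0288 (SE 0.0205) in liver. In the body of Zfp462, 21 of 228 fragments were called with kidney higher, which is 2 regions, beside 1.91 percent of all fragments, and its start was not called. A region of 3 fragments lies in an intron of Smc2, a condensin subunit, 965.9 kb upstream. Another, of 8 fragments, reaches into the 3′ end of Toporsl. Its peak 825.9 kb upstream had 0.00157 (SE 0.0115) in liver and 0.0708 (SE 0.0120) in kidney. A further region, 1389 kb upstream, overlaps an exon of the noncoding gene C630028M04Rik, whose start was called (0.00280 in liver, 0.0592 in kidney). The signals there were small, and so were their deposited variances. With each variance raised to at least the median of its tissue, an alternative chosen after seeing the data, 70 of the 113 kidney-high fragments and 9 regions remained called. All 102 liver-high fragments remained. The regions 1525, 1389, 1283, 965.9 and 825.9 kb upstream and 1485 kb downstream then fell below 3 SE at their peaks. With the median of all fragments or of the distance class subtracted, the peaks 1525, 1389, 1345, 1283, 965.9 and 509.3 kb upstream and 540.2 and 1485 kb downstream were below 3 SE.

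**Figure D5:**
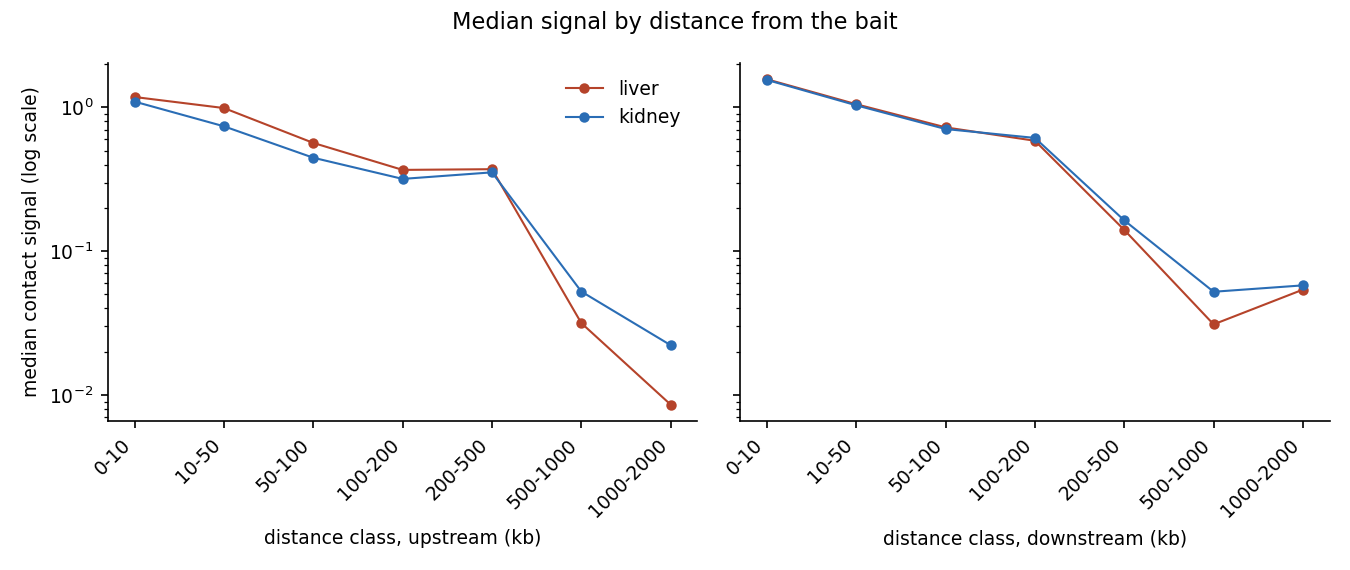
Median contact signal (y axis, log scale) of liver and kidney in classes of distance from the bait (x axis, kb), upstream on the left and downstream on the right. Upstream the liver median is above kidney to 500 kb and below it beyond; downstream the medians are close to 100 kb and kidney is above liver in each class past 100 kb.

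The direction of the difference changed with distance on both sides. Upstream, the median difference went from 0.127 at 50 to 100 kb through 0.0220 at 100 to 200 kb to -0.0142 at 200 to 500 kb and -0.0178 at 500 to 1000 kb. At 200 to 500 kb upstream the median signal was still the higher in liver, 0.372 against 0.353, and the mean difference was 0.000997. Downstream it was 0.0164 at 50 to 100 kb, -0.0299 at 200 to 500 kb and -0.0182 at 500 to 1000 kb. Liver was above kidney in 1412 of the 4492 fragments beyond 500 kb. Each of these distant medians was smaller than the median SE of a single fragment, 0.0274 beyond 500 kb and 0.0536 within it. Over 10 to 500 kb the median signal was higher upstream than downstream in both tissues, 0.402 against 0.197 in liver and 0.373 against 0.264 in kidney. The side with more signal depended on the range: at 10 to 100 kb the upstream minus downstream difference was 0.0204 in liver and -0.152 in kidney.

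Kidney RNA was at hand from another strain, 129SV mice on night-restricted feeding, in TPM (abundances per transcript, with an equal sum in every library), and liver RNA was not analysed here. Slc44a1 was at 12.3 to 15.0 TPM over the 12 WT kidney libraries (median 13.4), and at 12.9 and 13.9 TPM in the pair taken at ZT20. Of these 16 protein-coding genes, 6 reached at least 1 TPM in the ZT20 mean and 6 were listed at 0 in all 12 libraries. At ZT20, Abca1 was at 3.16 TPM ± 0.580 (SD, n = 2) and Fsd1l at 0.805 ± 0.0552 (SD, n = 2). Tmem38b and Rad23b, at 18.6 TPM ± 0.899 and 40.4 TPM ± 1.40 (SD, n = 2), were the most abundant of the 16. In such bulk RNA, fewer cells of a type and less RNA per cell cannot be told apart. A relation between contact and RNA was not tested.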

How the data were processed

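4C-seq of the Slc44a1 bait was analysed from 4 libraries, 2 per tissue. The authors deposited a contact signal (a score) for each tissue and fragment and a variance (also a score), under the headers A and Avar. These headers do not name smoothing. The signal is called smoothed here because differences of neighbouring fragments correlated at 0.986. The submitters' processing notes name mm9 for the 4C-seq samples. How the libraries were aligned, smoothed, scaled and combined, and how the variance was estimated, was not given in the sources used here. Fragment midpoints were placed on the GATC fragments of GRCm38, where 100% fitted at 1 position, so coordinates are on GRCm38 by that match, with the GENCODE M21 annotation. The deposited Z-scores and p-values were not used. The authors deposited TPM per transcript, made with kallisto 0.42.4 per the submitters' processing notes; TPM was summed to genes in the 12 WT libraries, and the knockout libraries were left out. TPM keeps no depth.

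Fragments were called past 3 standard errors with Python 3.11.15, pandas 2.3.3 and numpy 2.4.6. The calling was first tested on simulated data with independent noise for each fragment. The deposited signal is smoothed, so this checked the code and not the error of the calls in these data. Named genes were Slc44a1, protein-coding genes starting within 500 kb, genes at called regions or their nearest neighbours, and beyond 500 kb the 3 starts highest in each tissue and the 3 with the largest ratio. Members, lists and rules were chosen with earlier results of these data known. A gene of the window and the region at it are not reported here. Alternatives covered the threshold, the standard error, centring, joining, summaries and distance ranges.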

Additional observations from a re-analysis of the deposited data

How the results depend on the processing

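The 102 liver-high fragments became 268, 62 and 36 at 2, 4 and 5 SE, and the 113 kidney-high fragments 495, 10 and 0. Liver-high regions numbered 14, 2 and 1 and kidney-high regions 46, 2 and 0 at these thresholds. Centred on the median of the distance class, 59 kidney-high fragments were called, in 8 regions, and 10 liver-high regions. Centred on the median of all fragments, 59 were kidney-high. With raised variances, chosen after seeing the data, 70 kidney-high fragments in 9 regions were called. A 1.5-fold ratio called 509 liver-high and 1177 kidney-high fragments, of which 9 and 106 were among those of the 3 SE rule, so on a ratio scale most liver-high calls did not pass. The difference of the main liver-high region, 0.309 at its peak, was 0.223 as a mean, 0.221 as a median and 0.188 centred by class. The upstream minus downstream difference was 0.0204 (10 to 100 kb) and -0.0327 (500 to 2000 kb) in liver, and -0.152 and -0.0260 in kidney. Of 18 other region differences, 2 moved in size when centred by class, those peaking 825.9 and 82.6 kb upstream. Such a change in size does not tell whether a call was kept. Centred by class, the peaks 1525, 1389, 1345, 1283, 965.9, 509.3 and 82.6 kb upstream and 540.2 and 1485 kb downstream were below 3 SE. The peak 825.9 kb upstream stayed past 3 SE. Of 6 TPM values, 5 moved when only the most abundant transcript was taken. For these changes the cause was not tested beyond what each rule itself sets. No paired analysis was possible because the contact values are combined per tissue and carry no replicate numbers; for the same reason no library could be left out.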

Other observations

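The upstream flank also holds noncoding genes between the promoter and Abca1, picked here after their values were seen. Lexis1, a liver long noncoding RNA of cholesterol metabolism, starts 221.5 kb upstream, with signals of 0.409 (SE 0.0500) in liver and 0.443 (SE 0.0506) in kidney. Mexis, a long noncoding RNA known from macrophages, has RefSeq starts 174.7 and 170.0 kb upstream. At the first liver had 0.451 and kidney 0.447, and at the second 0.296 and 0.273. None of these differences reached its SE. Of the 49 starts in the window that are not protein-coding, 1 was called with liver higher (Gm12496) and 1 with kidney higher (C630028M04Rik), counts near the 1.72 and 1.91 percent called over all fragments.

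The regions were described by their sequence. In the main liver-high region, 35 AGGTCA matches were found against a median of 31 in 3950 windows of the same length, 10 TGTTTAC against 8, 7 TTANGTAA against 7 and 4 CACGTG against 4. The HNF4 motif CAAAGTCCA had 0 matches there against a median of 1, and 51.0% of the windows held it. Its G and C content was 43.6% (window median 40.5%). The liver-high region 203.1 kb upstream had 45.1%, above 90.5% of windows, and that in Abca1 46.8%, above 93.8%. Those 82.6 kb upstream and 120.7 kb downstream had 42.1% and 41.2%, above 65.5% and 56.0% of windows. The kidney-high region beside Fsd1l had 47.8%, above 97.2% of windows. The kidney-high region in an exon of Zfp462 had 50.9%, with 4.95% of its bases in repeats. Other kidney-high regions lay on both sides of the median of their windows, with 35.0% at 1283 kb and 42.0% at 965.9 kb upstream, and 40.4% at 1485 kb and 39.6% at 1623 kb downstream. Among those reported, the extremes were 26.05% at 1345 kb upstream and 46.15% at 540.2 kb downstream. No match of the palindromic HNF1 motif was found within 2000 kb of the bait on either side. The search was for the exact palindrome alone, which was in only 0.00913% of 32851 RefSeq promoters. So rare a match cannot tell whether HNF1 sites with other letters are present, and no conclusion is drawn from its absence.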
